A study of Mus musculus with 8 samples.

Results

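Cells make cholesterol and long-chain fatty acids from the same precursor, cytosolic acetyl-CoA, and 34 mouse genes of these routes were followed in embryonic fibroblasts with and without Smurf2, a gene for a HECT-type ubiquitin ligase. The list was drawn up by function: 18 enzymes of cholesterol synthesis (7 of the mevalonate route and 11 from squalene onwards, here called the sterol branch), 6 genes of sterol sensing and transport, and 10 genes of fatty acid synthesis, desaturation and elongation with the phosphatidate phosphatase Lpin1 (the fatty acid branch). A gene was taken where a transcript cluster of the array carried its symbol and no other, and the mean was used where it had several. In all, 33 of the 34 genes were measured among 17501 genes. Acat2, the thiolase that starts the mevalonate route, had no such cluster, and Idi1, Fdft1 and Acaca had 2 each. The sterol branch therefore holds 17 measured genes.

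Embryonic fibroblasts (MEFs) are the connective tissue cells that attach and divide when an embryo is dissociated into culture, and RNA of 8 such cultures was hybridised to 1 array each. Genotype (Smurf2-/- or wild-type), background (mixed BL, a cross of 129SVJ and NIH Black Swiss mice, or C57B6) and passage class (late or early) were fully crossed, with 1 array per combination and 4 arrays at each level of each factor. Late passage was 33 in mixed BL and 28 in C57B6, and early passage was 6 in mixed BL and 7 in C57B6. The Smurf2-/- mixed BL cells came from 3 pooled embryos, the wild-type mixed BL cells from 2, and the C57B6 cells from 1 embryo of each genotype. All were grown in the same serum-containing medium. The sample descriptions give the embryos as E14.5 and the growth protocol as day 11.5. The labels give neither how the Smurf2 allele was made, nor the sex of the embryos, nor if a line's early and late arrays came from 1 culture. The p-values therefore reflect only how far these arrays scatter around the model. With 1 array per combination, that scatter holds any dependence of 1 factor on another that the model leaves out, together with technical scatter. The difference between backgrounds cannot be told apart from passage number and from the number of embryos pooled.

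In the mevalonate route, acetyl-CoA is built into isoprenoid units and then squalene, which is closed into lanosterol and trimmed to cholesterol, while the fatty acid branch carboxylates acetyl-CoA and extends it to palmitate, which is then desaturated or elongated. Transcription of both branches is driven by the SREBP factors, products of Srebf2 (mainly sterol genes) and Srebf1 (mainly fatty acid genes). These are escorted by Scap to the Golgi for cleavage when membrane sterol is low and are held back in the endoplasmic reticulum by the Insig proteins when it is high. Growing fibroblasts need both products for new membrane.

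All values below are log2 values centred on the gene's own median over the 8 arrays, as deposited, so 0 is a gene's middle array and the values say nothing of 1 gene's level against another's. Smurf2 stood at -0.88 ± 0.38 in Smurf2-/- arrays and 0.69 ± 0.22 in wild-type arrays (SD, n = 4 each), a difference of -1.57 (exact two-sided permutation p = 0.0286, the smallest that 4 against 4 arrays can give). Transcripts of the sex chromosomes differed too: Xist, the RNA that coats the inactive X chromosome, averaged -1.84 ± 0.23 in Smurf2-/- arrays and 2.52 ± 0.74 in wild-type arrays (SD, n = 4 each), and the Y-linked Uty, Kdm5d and Eif2s3y were higher in Smurf2-/- arrays by 2.35, 2.27 and 3.50. Genotype and this sex-chromosome pattern cannot be told apart. The numerical step of the deposited values puts a floor under the uncentred level: 26 of 36 clusters of the lipid genes (72.2%) had an inferred log2 level of at least 8 in every array, against 23% of all named clusters, 7 of 10 of the fibroblast markers and 0 of 26 clusters of adipocyte, leukocyte, epithelial and endothelial markers. Array medians over all genes ranged from -0.0146 to 0.0458.

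Promoter windows are shown for 4 genes, whose sequences carry letters bound by SREBP or its partners. Hmgcs1 has the only window matched here that holds the sterol regulatory element searched. Hsd17b7 and Insig2 lead the background comparison below, and Fasn leads the comparison of genotype across passage. An NF-Y box does not set these genes apart, since 21 of the 26 listed genes with a window had one. Each window runs from 250 bases before to 50 after a transcript start in RefSeq (build GRCm38.p6), is written 5′ to 3′ on the gene's strand, and has in capitals every match to the sterol regulatory element (TCACNCCAC, N being any base) or to the NF-Y box (CCAAT) on either strand, so that ATTGG is an NF-Y box read from the other strand. Hmgcs1 lies at chr13:119690101-119690400 on the plus strand, Hsd17b7 at chr1:169969156-169969455, Insig2 at chr1:121332540-121332839 and Fasn at chr11:120824498-120824797, these 3 on the minus strand. Insig2 has 3 windows in the table, and the window shown is the one of the 3 with NF-Y boxes.
Hmgcs1: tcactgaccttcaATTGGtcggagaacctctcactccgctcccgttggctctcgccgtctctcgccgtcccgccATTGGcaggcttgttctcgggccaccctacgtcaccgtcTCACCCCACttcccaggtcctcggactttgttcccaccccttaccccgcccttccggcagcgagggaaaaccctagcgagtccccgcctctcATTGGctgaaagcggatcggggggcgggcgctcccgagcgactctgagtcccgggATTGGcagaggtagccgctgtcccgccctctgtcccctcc
Hsd17b7: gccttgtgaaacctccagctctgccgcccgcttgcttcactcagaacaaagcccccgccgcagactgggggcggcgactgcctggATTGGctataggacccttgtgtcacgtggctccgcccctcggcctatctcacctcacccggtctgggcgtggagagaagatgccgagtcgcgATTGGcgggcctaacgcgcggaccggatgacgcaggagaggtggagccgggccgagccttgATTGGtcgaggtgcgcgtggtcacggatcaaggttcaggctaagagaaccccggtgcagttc
Insig2: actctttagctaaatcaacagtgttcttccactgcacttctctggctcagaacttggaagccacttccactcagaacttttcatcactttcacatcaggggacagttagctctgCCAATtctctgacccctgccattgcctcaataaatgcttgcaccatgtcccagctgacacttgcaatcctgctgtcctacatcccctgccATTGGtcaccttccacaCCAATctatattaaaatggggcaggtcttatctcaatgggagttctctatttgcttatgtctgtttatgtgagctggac
Fasn: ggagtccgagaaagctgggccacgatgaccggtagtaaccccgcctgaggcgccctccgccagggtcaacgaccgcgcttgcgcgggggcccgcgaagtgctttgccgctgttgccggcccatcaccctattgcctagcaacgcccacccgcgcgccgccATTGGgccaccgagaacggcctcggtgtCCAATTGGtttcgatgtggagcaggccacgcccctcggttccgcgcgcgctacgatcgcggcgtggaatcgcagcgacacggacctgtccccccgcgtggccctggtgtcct

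The sterol regulatory element of Hmgcs1 begins 137 bases before the start, between NF-Y boxes that begin 176 and 45 bases before it. Hsd17b7 holds 3 NF-Y boxes, the nearest 12 bases before the start, and Insig2 also holds 3, the nearest 29 bases before it. Fasn holds 3 matches, of which those 62 and 59 bases before the start overlap on opposite strands. RefSeq windows were matched by symbol for 26 of the 33 measured genes, 34 windows in all; Fdps, Fdft1, Sqle, Stard4, Scd1, Scd2 and Fads1 had no entry. An NF-Y box was present in at least 1 window of 14 of 14 sterol branch genes and of 3 of 7 fatty acid genes (Acly, Acss2 and Fasn). By window, the share was 82.4% in the sterol branch and 42.9% in the fatty acid branch, against 37.4% of all 32851 windows of that length. The Sp1 box (GGGCGG, either strand) was present in 82.4% of sterol windows, 42.9% of fatty acid windows and 35.7% of all windows. The E-box CACGTG was present in 17.6% of sterol windows, 0% of fatty acid windows and 7.15% of all windows. For the sterol regulatory element the shares were 5.88% of sterol windows, 0% of fatty acid windows and 1.24% of all windows. Hmgcs1 was its only match, 1 of the 34 windows of the list (2.94%). These are matches of letters, not measured binding.

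The 2 backgrounds differed in the same direction across the sterol branch. All 17 sterol branch genes were higher in mixed BL than in C57B6 cells in the model with genotype, background and passage, by a median of 0.40 on the log2 scale, whereas 51.7% of all genes were higher and their median was 0.00. The fatty acid branch had a median of 0.04 with 8 of 10 genes higher, and ran from -0.17 to 0.63 for Scd1. Sensing and transport had a median of 0.18 with 4 of 6 higher. No listed gene passed an adjusted p of 0.05 in limma (14 genes, 0.08% of those tested, did). At an unadjusted p under 0.05, 8 of 33 were higher (Dhcr7, Hsd17b7, Insig2, Lss, Msmo1, Mvd, Sc5d and Stard4, against 6.85% of all genes) and 0 were lower (6.62% of all genes). For 5 of 33 genes the 4 mixed BL arrays all lay above the 4 C57B6 arrays: Insig2, Hsd17b7, Mvd, Msmo1 and Lss, against 3.02% of all genes. All 4 matched pairs were higher in 9 of 33 genes (10.4% of all genes) and lower in 0 of 33 (9.93%). Leaving out the early C57B6 Smurf2-/- array brought the sterol median to 0.26, and leaving out the early C57B6 wild-type array brought it to 0.56. The fatty acid median ranged from -0.06 without the late C57B6 wild-type array to 0.24 without the early C57B6 wild-type array.

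**Figure D1:**
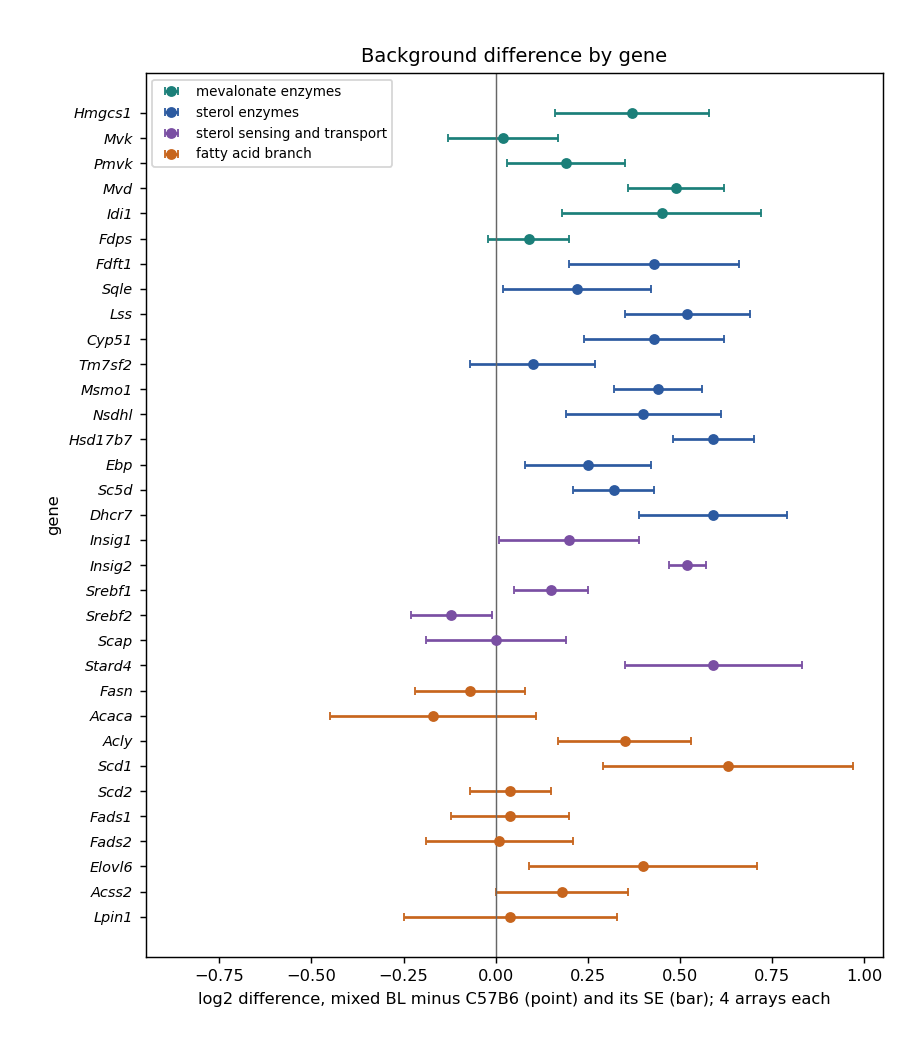
Log2 difference of mixed BL minus C57B6 arrays (horizontal axis, point) with its standard error (bar) for each of the 33 genes (vertical axis), coloured by group, from the limma model over 4 arrays each. All mevalonate and sterol enzymes lie to the right of 0, between 0.02 for Mvk and 0.59 for Hsd17b7 and Dhcr7. The fatty acid genes run from -0.17 to 0.63 for Scd1, the largest difference of the 33 genes, and 5 of these 10 lie between -0.07 and 0.04.

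Insig2, which retains the SREBP escort in the endoplasmic reticulum, had the smallest error of these. It stood at 0.08, 0.46, 0.05 and 0.34 in mixed BL cells (late Smurf2-/-, early Smurf2-/-, late wild-type, early wild-type) and at -0.43, -0.05, -0.55 and -0.12 in C57B6 cells in the same order, which is kept below. Every mixed BL array lay above every C57B6 array, and the 4 matched pairs differed by 0.46 to 0.60. The means were 0.23 ± 0.20 in mixed BL and -0.29 ± 0.24 in C57B6 (SD, n = 4 each), a difference of 0.52 ± 0.05 (SE; 1.44-fold) with a limma adjusted p of 0.0562, just short of the threshold. Tested as 1 of 24169 transcript clusters instead of 1 of 17501 genes, the same difference had an adjusted p of 0.0337.

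Hsd17b7, the reductase that removes the keto group left by sterol demethylation, stood at 0.04, 0.33, 0.28 and 0.15 in mixed BL cells and at -0.65, -0.36, -0.52 and -0.04 in C57B6 cells. The groups did not overlap, but the early wild-type pair was the closest. The difference was 0.59 ± 0.11 (SE; 1.51-fold; adjusted p = 0.143). Mvd, the decarboxylase that yields the first isoprenoid unit, stood at 0.48, 0.23, 0.20 and 0.00 in mixed BL cells and at 0.00, -0.41, -0.51 and -0.15 in C57B6 cells, a difference of 0.49 ± 0.13 (adjusted p = 0.218). The late C57B6 Smurf2-/- array came nearest to the mixed BL range.

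Msmo1, a monooxygenase of the sterol demethylation steps, stood at 0.18, 0.10, 0.06 and 0.12 in mixed BL cells and at -0.23, -0.45, -0.55 and -0.06 in C57B6 cells. Its mixed BL arrays were closer together than its C57B6 arrays. The difference was 0.44 ± 0.12 (SE; adjusted p = 0.228). Lss, which closes oxidised squalene into lanosterol, stood at 0.75, 0.31, 0.06 and 0.04 in mixed BL cells and at -0.05, -0.42, -0.42 and -0.04 in C57B6 cells, a difference of 0.52 ± 0.17 (adjusted p = 0.284). Within mixed BL its 2 Smurf2-/- arrays lay above its 2 wild-type arrays.

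Taken pair by pair, the sterol median was higher in mixed BL cells by 0.45 in late Smurf2-/-, 0.63 in early Smurf2-/- and 0.49 in late wild-type, with 13, 17 and 16 of 17 genes higher. The early wild-type pair stood apart, with 8 of 17 genes higher and a median of 0.00. The fatty acid medians of the same pairs were 0.19, 0.15, 0.28 and -0.24. Set against each other within each array, the sterol median exceeded the fatty acid median in all 4 mixed BL arrays (by 0.02 to 0.17) and lay under it in all 4 C57B6 arrays (by -0.13 to -0.08). Proliferation markers had a background median of -0.10 with 3 of 11 higher. By pair their medians were -0.60 in late Smurf2-/-, -0.05 in early Smurf2-/-, 0.16 in late wild-type and -0.03 in early wild-type. What part proliferation had in the background values was not tested.

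Among the other sterol genes, Dhcr7, a reductase of the last steps, differed by 0.59 ± 0.20 (SE; adjusted p = 0.292), Cyp51, lanosterol demethylase, by 0.43 ± 0.19 (adjusted p = 0.41) and Fdft1, squalene synthase, by 0.43 ± 0.23 (adjusted p = 0.497). Hmgcs1, which condenses acetyl-CoA with acetoacetyl-CoA, stood at 0.24, 0.09, 0.55 and -0.09 in mixed BL cells and at -0.21, -0.18, -0.54 and 0.22 in C57B6 cells, and its groups overlapped through the early wild-type pair. The kinase Mvk, the farnesyl synthase Fdps and the sterol reductase Tm7sf2 were nearest to 0, at 0.02, 0.09 and 0.10. Outside the enzymes, Stard4, a soluble sterol carrier, differed by 0.59 ± 0.24 (adjusted p = 0.363).

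**Figure D2:**
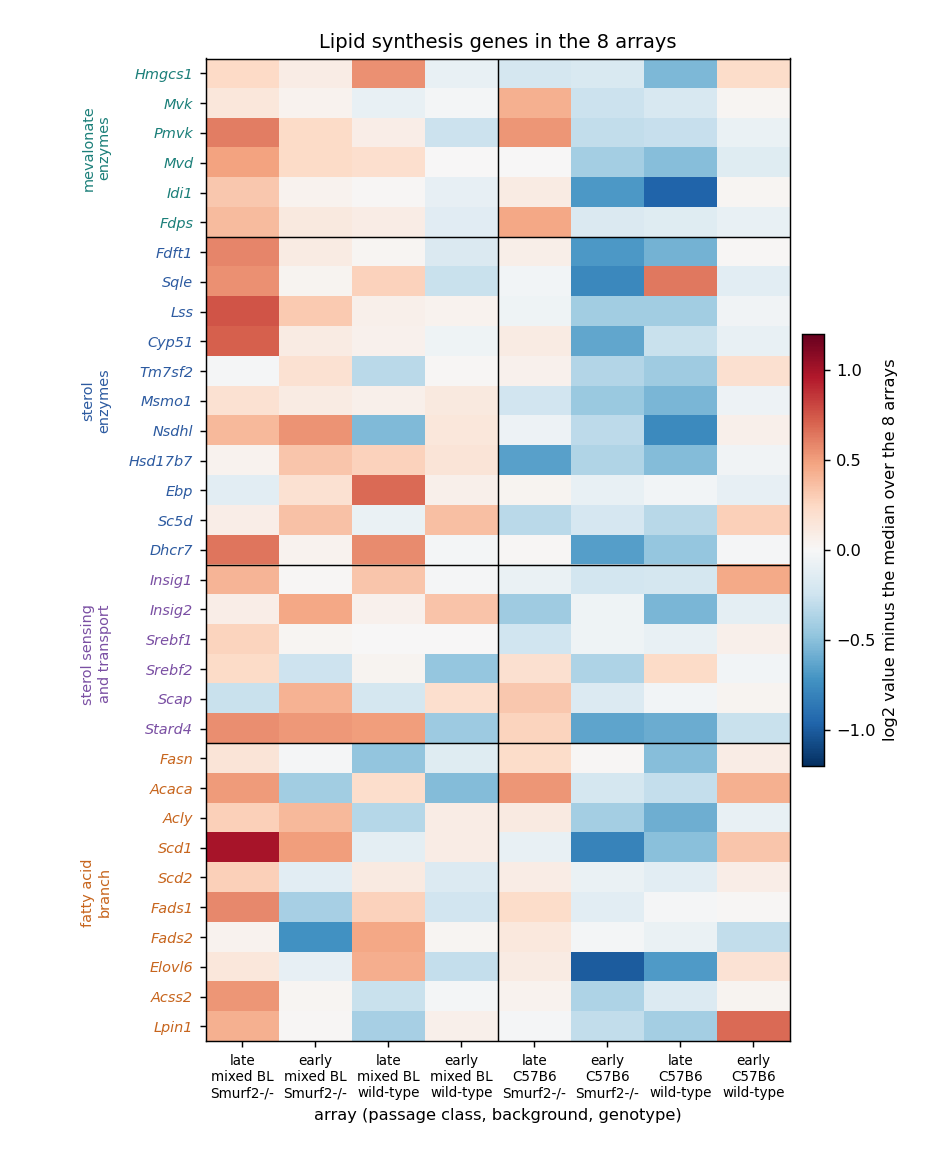
Centred log2 value (colour) of the 33 measured genes (rows, by group) in each of the 8 arrays (columns). The late mixed BL Smurf2-/- column is above 0 for 15 of 17 sterol branch genes and 10 of 10 fatty acid genes, while the early C57B6 Smurf2-/- and late C57B6 wild-type columns are above 0 for 0 and 1 of 17 sterol branch genes.

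Between late and early passage, averaged over genotypes and backgrounds, neither branch shifted as a block. The sterol median was 0.12 with 11 of 17 genes higher at late passage, the fatty acid median 0.14 with 7 of 10 higher, and the median of all genes 0.03 with 57.5% higher. With 1 array left out the sterol median lay between 0.01 (without early C57B6 Smurf2-/-) and 0.26 (without early C57B6 wild-type), and the fatty acid median between 0.02 (without late mixed BL Smurf2-/-) and 0.30 (without early C57B6 wild-type). No listed gene passed in limma (3 genes, 0.0171% of those tested, did). At an unadjusted p under 0.05, Fads1, Sqle and Srebf2 were higher (3 of 33, against 6.95% of all genes) and Insig2 and Sc5d lower (2 of 33, against 10.3%). These counts are close to the background of all genes.

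Srebf2, which encodes the SREBP of sterol genes, and Insig2, which restrains it, had opposite signs in every matched pair. Srebf2 stood at 0.23 and 0.03 in late mixed BL cells (Smurf2-/- and wild-type), 0.19 and 0.23 in late C57B6 cells, against -0.25 and -0.46 in early mixed BL cells and -0.37 and -0.03 in early C57B6 cells. All late arrays lay above all early arrays, as was so for 5.44% of all genes. The difference was 0.45 ± 0.11 (SE; 1.37-fold; adjusted p = 0.15). Insig2 differed by -0.37 ± 0.05 (SE; adjusted p = 0.104) with pairs from -0.43 to -0.28, although its late and early arrays overlapped because of the background difference above.

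**Figure D3:**
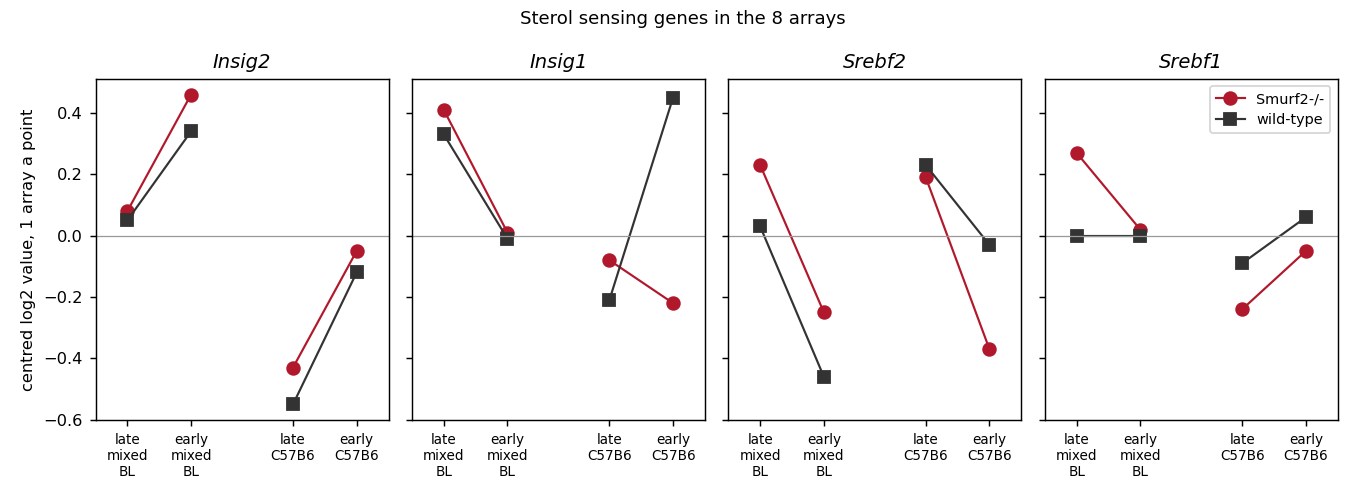
Centred log2 value (vertical axis) of Insig2, Insig1, Srebf2 and Srebf1 in each array (1 point each), by passage class and background (horizontal axis) and genotype (colour). Insig2 is lower at late passage in all 4 lines and lower in C57B6, Srebf2 is higher at late passage in all 4 lines, and Insig1 and Srebf1 show neither pattern in all lines.

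Sqle, squalene epoxidase, a rate-controlling step of the sterol branch, stood at 0.55 and 0.28 in late mixed BL cells (Smurf2-/- and wild-type) and -0.03 and 0.63 in late C57B6 cells, against 0.03 and -0.27 in early mixed BL cells and -0.77 and -0.13 in early C57B6 cells. Each line was higher at late passage, by 0.52 to 0.77, but the groups overlapped. The difference was 0.64 ± 0.20 (SE; 1.56-fold; adjusted p = 0.215).

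Fads2, a desaturase of polyunsaturated fatty acids, stood at 0.04 and 0.46 in late mixed BL cells (Smurf2-/- and wild-type) and 0.13 and -0.08 in late C57B6 cells, against -0.73 and 0.02 in early mixed BL cells and -0.02 and -0.30 in early C57B6 cells. The early mixed BL Smurf2-/- array was far below the others, and without it the difference of 0.40 ± 0.20 (adjusted p = 0.374) was 0.20. Sc5d, the sterol desaturase near the end of the pathway, stood at 0.08 and -0.08 in late mixed BL cells and -0.32 and -0.33 in late C57B6 cells, against 0.35 and 0.36 in early mixed BL cells and -0.20 and 0.29 in early C57B6 cells. It was lower at late passage in every line, by -0.62 to -0.11, and differed by -0.36 ± 0.11 (adjusted p = 0.214).

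Insig1 and Srebf1, the SREBP-responsive partners of these sensors, showed no such order. Insig1 stood at 0.41 and 0.33 in late mixed BL cells (Smurf2-/- and wild-type) and -0.08 and -0.21 in late C57B6 cells, against 0.01 and -0.01 in early mixed BL cells and -0.22 and 0.45 in early C57B6 cells. Srebf1 stood at 0.27 and 0.00 in late mixed BL cells and -0.24 and -0.09 in late C57B6 cells, against 0.02 and 0.00 in early mixed BL cells and -0.05 and 0.06 in early C57B6 cells. Their passage differences were 0.06 ± 0.19 and -0.02 ± 0.10 (SE), within the spread of the arrays. Scap, the escort, differed by -0.17 ± 0.19 and Stard4 by 0.38 ± 0.24. Fibroblast markers were lower alongside, with 10 of 10 below 0 and a median of -0.47 between late and early passage. The late C57B6 Smurf2-/- array stood apart in them: the late minus early median of that line was -0.97 with 0 of 10 higher. Its lowest values included Postn at -4.29 and Dcn at -2.49, both genes of the extracellular matrix. Dcn was also low in the late wild-type arrays, at -2.09 in mixed BL and -2.17 in C57B6. The other lines had medians of -0.12 (mixed BL Smurf2-/-), -0.14 (mixed BL wild-type) and 0.04 (C57B6 wild-type). Without the late C57B6 Smurf2-/- array the passage medians were 0.07 for the sterol and 0.12 for the fatty acid branch. The part of the fibroblast markers in the passage values was not tested.

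Averaged over passage and background, loss of Smurf2 was accompanied by small differences. The sterol median was 0.16 with 11 of 17 genes higher in Smurf2-/- cells, the fatty acid median 0.10 with 8 of 10 higher, and the median of all genes 0.02 with 55.5% higher. No listed gene passed in limma (5 genes, 0.0286% of those tested, did), and with unadjusted p under 0.05 there were 0 of 33 higher (3.14% of all genes) and 0 of 33 lower (4.42%). Insig2 was higher in all 4 matched pairs (1 of 33, against 11% of all genes) and no gene was lower in all 4 (0 of 33, against 9.35%). Its difference was 0.09, with an adjusted p of 0.692. Leaving out 1 array moved the sterol median between 0.01 (without late C57B6 Smurf2-/-) and 0.29 (without early C57B6 Smurf2-/-), and the fatty acid median between -0.04 (without late C57B6 wild-type) and 0.33 (without early C57B6 wild-type).

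The average holds late medians above 0 in both backgrounds and early medians whose sign differed between backgrounds. At late passage the sterol branch was higher in Smurf2-/- cells by a median of 0.40 (14 of 17 genes) and the fatty acid branch by 0.53 (9 of 10), with 56.2% of all genes higher. In 24 of 33 genes both backgrounds were higher, against 28.4% of all genes. At early passage the medians were -0.11 (4 of 17 higher) and -0.21 (1 of 10 higher), with 50.7% of all genes higher. These early medians combine opposite signs: in mixed BL the early sterol median was 0.18 (15 of 17 higher) and the fatty acid median 0.07 (7 of 10), whereas in C57B6 they were -0.40 (1 of 17) and -0.36 (1 of 10). Of all 33 genes 28 were higher at early passage in mixed BL and 3 in C57B6; 2 were higher in both (28.1% of all genes) and 4 lower in both (26%). With 1 array left out the early sterol median ranged from -0.37 (without early mixed BL wild-type) to 0.12 (without early C57B6 wild-type), and the fatty acid median from -0.34 to 0.10 without the same arrays. Again no listed gene passed in limma at late passage (0 of 17501 genes, 0%, did) or at early passage (1 gene, 0.00571%, did). At an unadjusted p under 0.05, 9 of 33 were higher at late passage (Acly, Acss2, Cyp51, Fasn, Fdps, Lss, Mvk, Nsdhl and Pmvk, against 6.39% of all genes) and 0 lower (6.97%), while at early passage 0 were higher (0.383%) and 0 lower (0.703%).

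**Figure D4:**
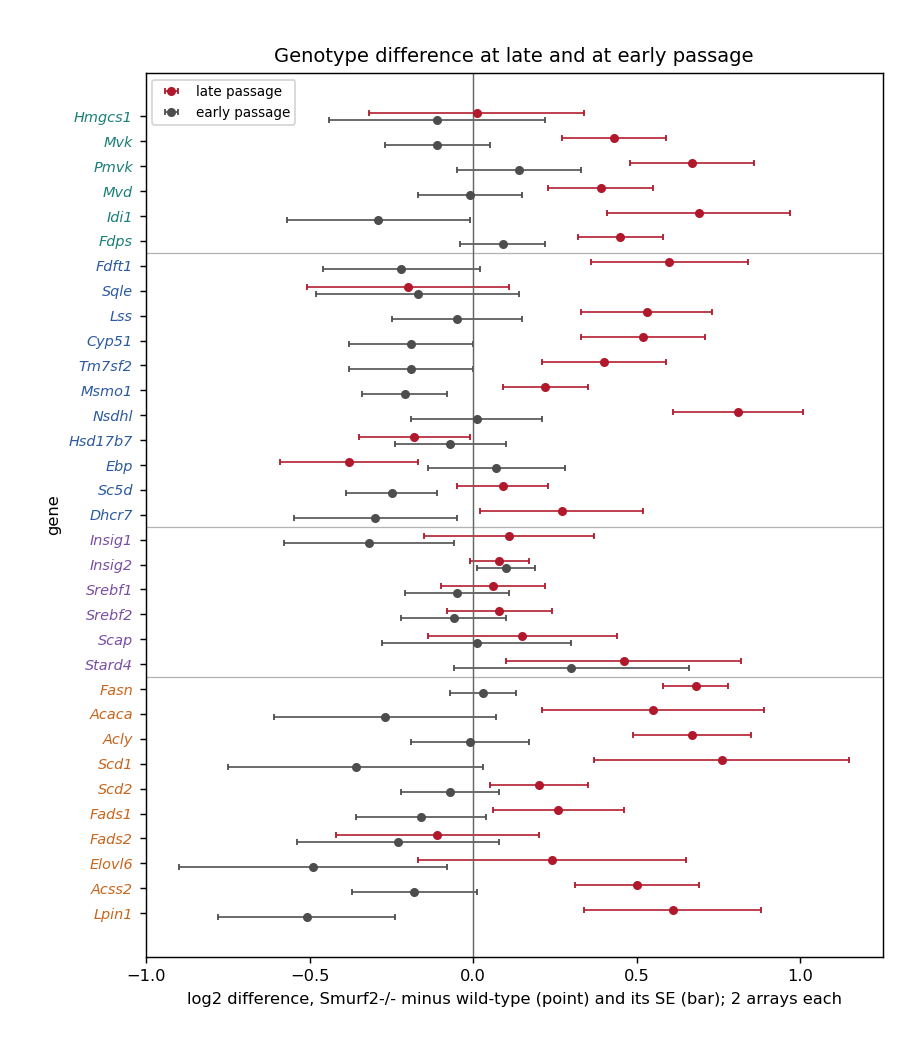
Log2 difference of Smurf2-/- minus wild-type (horizontal axis, point) with its standard error (bar) at late and at early passage for each of the 33 genes (vertical axis, labels coloured by group), 2 arrays each. Late-passage points lie to the right of early-passage points for 29 of 33 genes; Sqle, Hsd17b7, Ebp and Insig2 are the exceptions.

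The change of the genotype difference with passage, its interaction term, was above 0 in 14 of 17 sterol genes (median 0.53), 10 of 10 fatty acid genes (median 0.68) and 54.1% of all genes (median 0.02). It had the same positive sign in both backgrounds for 22 of 33 genes, against 26.8% of all genes. No listed gene and no gene of the array (0 of 17501, 0%) passed in limma. At an unadjusted p under 0.05, 6 of 33 listed genes were higher (Acly, Acss2, Cyp51, Fasn, Lpin1 and Nsdhl, against 2.85% of all genes) and 0 lower (2.5%). C57B6 carried more of it: the sterol median was 0.14 in mixed BL and 0.76 in C57B6, and the fatty acid median 0.40 in mixed BL and 0.93 in C57B6. Without the early C57B6 wild-type array the medians were 0.26 and 0.43. Fibroblast markers went the other way in C57B6: their late genotype median was -1.04 there, with 0 of 10 higher, against 0.00 in mixed BL, and their interaction median was -0.89 in C57B6 and 0.03 in mixed BL. Without the late C57B6 Smurf2-/- array, the low one in these markers, the late genotype medians were 0.30 (sterol) and 0.60 (fatty acid) and the interaction medians 0.41 and 0.64. The part of these markers was not tested.

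Fasn, the synthase that makes palmitate, had the smallest p. It stood at 0.15 and -0.01 in late and early mixed BL Smurf2-/- cells and 0.22 and 0.01 in late and early C57B6 Smurf2-/- cells, against -0.47 and -0.15 in late and early mixed BL wild-type cells and -0.51 and 0.09 in late and early C57B6 wild-type cells. The late wild-type arrays were the lowest of the 8 and stood apart from the rest. The genotype difference at late passage was 0.68 ± 0.10 (SE; 1.60-fold; adjusted p = 0.128), at early passage it was 0.03, and the interaction was 0.65 ± 0.15 (adjusted p = 0.777).

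Lpin1, which makes diacylglycerol for glycerolipids, stood at 0.43 and 0.01 in late and early mixed BL Smurf2-/- cells and -0.01 and -0.30 in late and early C57B6 Smurf2-/- cells, against -0.40 and 0.06 in late and early mixed BL wild-type cells and -0.41 and 0.68 in late and early C57B6 wild-type cells. The early C57B6 wild-type array was the highest, and without it the interaction of 1.12 ± 0.39 (SE; adjusted p = 0.882) was 0.69. Acly, which supplies cytosolic acetyl-CoA from citrate, stood at 0.29 and 0.39 in late and early mixed BL Smurf2-/- cells and 0.11 and -0.41 in late and early C57B6 Smurf2-/- cells, against -0.34 and 0.09 in late and early mixed BL wild-type cells and -0.59 and -0.09 in late and early C57B6 wild-type cells. Its interaction was 0.68 ± 0.26 (adjusted p = 0.918), and 0.38 without the early C57B6 Smurf2-/- array. As with Fasn, its late wild-type arrays were lower than its late Smurf2-/- arrays in both backgrounds.

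Cyp51 stood at 0.72 and 0.10 in late and early mixed BL Smurf2-/- cells and 0.10 and -0.62 in late and early C57B6 Smurf2-/- cells, against 0.05 and -0.05 in late and early mixed BL wild-type cells and -0.27 and -0.09 in late and early C57B6 wild-type cells. Here the Smurf2-/- lines differed with passage, by 0.62 and 0.72, and the wild-type lines by 0.11 and -0.18. The interaction was 0.71 ± 0.26 (SE; adjusted p = 0.905), and 0.45 without the early C57B6 wild-type array. Sqle was the only listed gene with a term below 0 in both backgrounds, at -0.03, a size far under its error of 0.44.

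Scd1 and Scd2, desaturases that make oleate, differed in range. Scd1 stood at 0.99 and 0.50 in late and early mixed BL Smurf2-/- cells and -0.09 and -0.80 in late and early C57B6 Smurf2-/- cells, against -0.12 and 0.09 in late and early mixed BL wild-type cells and -0.50 and 0.33 in late and early C57B6 wild-type cells. Its range of 1.80 was the widest of the 33 genes. Scd2 stood at 0.29 and -0.13 in late and early mixed BL Smurf2-/- cells and 0.09 and -0.08 in late and early C57B6 Smurf2-/- cells, against 0.11 and -0.16 in late and early mixed BL wild-type cells and -0.13 and 0.08 in late and early C57B6 wild-type cells. Its range of 0.45 was the narrowest. The interaction terms were 1.12 ± 0.55 for Scd1 and 0.27 ± 0.21 for Scd2 (SE; adjusted p = 0.996 and 1).

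Nsdhl, a sterol dehydrogenase of the demethylation steps, and Ebp, the sterol isomerase after them, lie on the X chromosome, and Xist differed between the genotypes by -4.36. Nsdhl stood at 0.39 and 0.54 in late and early mixed BL Smurf2-/- cells and -0.06 and -0.31 in late and early C57B6 Smurf2-/- cells, against -0.53 and 0.14 in late and early mixed BL wild-type cells and -0.76 and 0.06 in late and early C57B6 wild-type cells. Its late genotype difference of 0.81 ± 0.20 (SE; 1.75-fold; adjusted p = 0.216) was the largest of the list, and its interaction was 0.80 ± 0.28 (adjusted p = 0.889), or 0.50 without the early C57B6 Smurf2-/- array. Ebp stood at -0.13 and 0.18 in late and early mixed BL Smurf2-/- cells and 0.03 and -0.09 in late and early C57B6 Smurf2-/- cells, against 0.68 and 0.06 in late and early mixed BL wild-type cells and -0.03 and -0.10 in late and early C57B6 wild-type cells. The late mixed BL wild-type array stood apart above the other 7, and the late difference was -0.38 ± 0.21 (adjusted p = 0.542). The 2 genes thus had late differences of opposite sign, and the part of sex chromosomes in them was not tested.

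Seen within each genotype, late passage was higher than early passage by a sterol median of 0.39 (14 of 17 genes) and a fatty acid median of 0.46 (10 of 10) in Smurf2-/- cells, where 57.8% of all genes were higher, and by -0.14 (5 of 17 higher) and -0.14 (4 of 10 higher) in wild-type cells, where 53.9% were. Both Smurf2-/- lines were higher in 23 of 33 genes (34.7% of all genes), and both wild-type lines lower in 13 of 33 (25.4%). No gene of the array passed in limma in either genotype (0%). At an unadjusted p under 0.05, 5 of 33 were higher (6.06% of all genes) and 1 lower (8.71%) in Smurf2-/- cells, and 0 higher (2.35%) and 5 lower (4.89%) in wild-type cells. The wild-type lines did not move together: the sterol median was 0.13 in mixed BL and -0.45 in C57B6, and the fatty acid median 0.03 in mixed BL and -0.56 in C57B6. The Smurf2-/- lines had sterol medians of 0.26 in mixed BL and 0.40 in C57B6, and fatty acid medians of 0.46 in mixed BL and 0.38 in C57B6. Without the early C57B6 Smurf2-/- array the sterol median of Smurf2-/- cells was 0.24, and without the early C57B6 wild-type array the wild-type medians were 0.15 and 0.10.

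Proliferation markers followed the same comparison. Of 12, 11 were measured, and their median was 0.43 in late mixed BL Smurf2-/- cells and 1.17 in late C57B6 Smurf2-/- cells, against -0.12 to -0.01 in the other 6 arrays. The genotype by passage term was above 0 for 11 of 11, with a median of 0.84, and 5 of 11 had an unadjusted p under 0.05 (none passed after adjustment). Of all genes, 54.1% had a term above 0 and 2.85% were higher at an unadjusted p under 0.05. In bulk RNA, a larger share of cells with a transcript and more of it in each cell cannot be told apart. The lipid branches did not rank the 2 late Smurf2-/- arrays in the same order: their sterol medians were 0.38 in mixed BL and 0.01 in C57B6, and their fatty acid medians 0.36 in mixed BL and 0.11 in C57B6. The lowest arrays of both branches were late C57B6 wild-type (-0.43 and -0.35) and early C57B6 Smurf2-/- (-0.36 and -0.26), in which the proliferation median was -0.12 and -0.01. The part of proliferation in the lipid values was not tested.

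**Figure D5:**
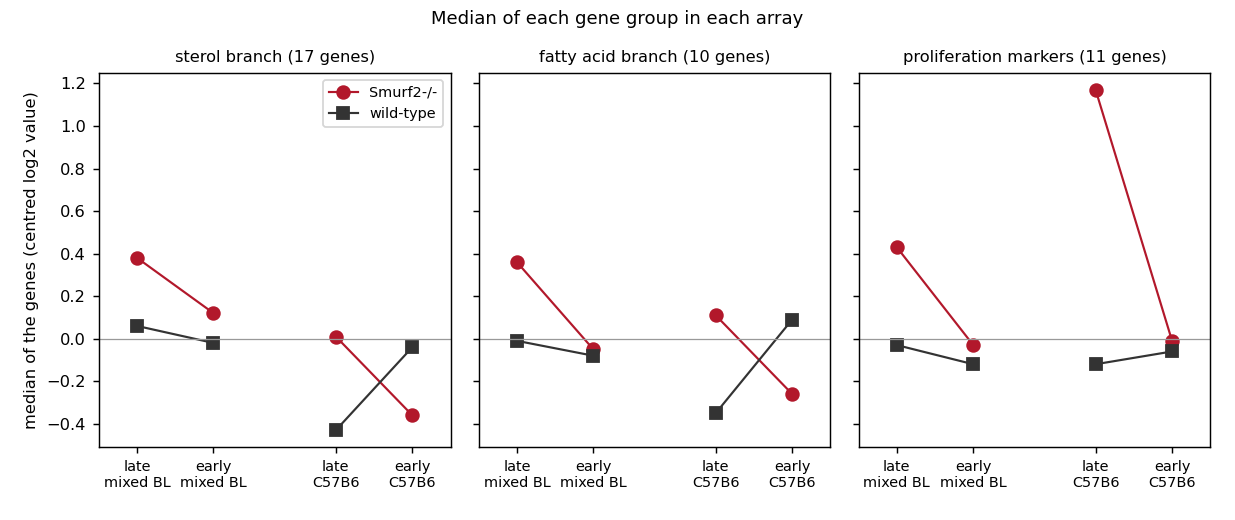
Median of the centred log2 values of the 17 sterol branch genes, 10 fatty acid genes and 11 proliferation markers (vertical axis) in each array, by passage class and background (horizontal axis) and genotype (colour); lines join the late and early array of a line. In both lipid branches the Smurf2-/- and wild-type lines of C57B6 cross, and the proliferation median is high only in the 2 late Smurf2-/- arrays.

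The same 8 arrays can be read as a genotype difference that depends on background. The genotype by background term had a sterol median of 0.20 (14 of 17 above 0) and a fatty acid median of 0.13 (9 of 10), against -0.05 and 39.6% above 0 for all genes. Its parts went opposite ways: at early passage the sterol term was 0.65 with 17 of 17 above 0, and at late passage -0.20 with 5 of 17. No gene passed in limma (0%), and at an unadjusted p under 0.05 Sqle and Srebf2 were higher (2 of 33, against 1.65% of all genes) and Fads2 lower (1 of 33, against 1.53%). The passage by background term had medians of 0.10 for the sterol and 0.36 for the fatty acid branch, with no gene passing (0%) and, at an unadjusted p under 0.05, Fads1 and Hmgcs1 higher (2 of 33, against 3.99%) and Scap lower (1 of 33, against 5.21%). Neither term kept its sign in either branch without the early C57B6 wild-type array: genotype by background was then -0.14 (sterol) and -0.21 (fatty acid), and passage by background -0.27 and -0.25. Genotype by background also had medians below 0 without the early C57B6 Smurf2-/- array (-0.06 and -0.01), and the sterol median for passage by background was -0.05 without the late C57B6 wild-type or the late mixed BL Smurf2-/- array.

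The 13 genes not given by array were Mvk, Pmvk, Idi1, Fdps, Fdft1, Tm7sf2, Dhcr7, Scap, Stard4, Acaca, Fads1, Elovl6 and Acss2. Their ranges over the 8 arrays ran from 0.63 for Fdps and Tm7sf2, a sterol reductase, to 1.45 for Elovl6, which elongates palmitate. Elovl6 and Idi1, the isomerase that interconverts the isoprenoid units, gave the lowest values of the whole list, in the early C57B6 Smurf2-/- and the late C57B6 wild-type array. The 2 clusters of Idi1, Fdft1 and Acaca were averaged.

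Genes around these routes were read from lists drawn up by function, and none of their members passed in limma for genotype, passage, background or the genotype by passage term. Of 10 measured genes of SREBP processing and sterol trafficking, 6 were lower at late passage with a median of -0.34, against 57.5% higher and a median of 0.03 for all genes. At an unadjusted p under 0.05, 4 of 10 were lower (10.3% of all genes) and 1 of 10, Cyp27a1, was higher (6.95%). Lipa, the lysosomal lipase, differed by -0.61 ± 0.11 (SE; adjusted p = 0.122), Npc2, a lysosomal sterol carrier, by -0.54 ± 0.13 (adjusted p = 0.156), Stard3, an endosomal sterol carrier, by -0.35 ± 0.08 (adjusted p = 0.138) and Ch25h, the hydroxylase of the endoplasmic reticulum that makes an oxysterol, by -1.01 ± 0.31 (adjusted p = 0.209). Each was lower in all 4 lines. Lipa and Ch25h were highest in the 2 early mixed BL arrays, at 0.71 and 1.45 in Smurf2-/- cells and 0.80 and 1.40 in wild-type cells. The macrophage marker Lyz2 was highest in the same arrays, at 2.07 in Smurf2-/- cells and 3.20 in wild-type cells, and its passage difference was -1.72 ± 0.52 (adjusted p = 0.206), with Cd68 at -0.89 ± 0.15 (adjusted p = 0.113). Of the 8 macrophage and leukocyte markers 5 were lower at late passage, with a median of -0.02, array medians between -0.05 and 0.16, and these 2 at an unadjusted p under 0.05. The part of these cells in the values was not tested. In the isoprenoid side branch 4 of 7 were lower, with a median of 0.00, among them Icmt, which methylates prenylated proteins (-0.48 ± 0.08, adjusted p = 0.115), and Ggps1, which makes geranylgeranyl diphosphate (-0.38 ± 0.10, adjusted p = 0.179). At an unadjusted p under 0.05, 3 of 7 were lower (Ggps1, Icmt and Pggt1b, against 10.3% of all genes) and 0 higher (6.95%). Fatty acid oxidation had 6 of 9 lower and a median of -0.21, with Cpt1a, the mitochondrial entry step, at -0.68 ± 0.20 (adjusted p = 0.192). Of 13 genes of fatty acid supply, elongation and glycerolipid synthesis, 8 were higher at late passage and the median was 0.04. Of these 13, 4 were higher at an unadjusted p under 0.05 (Acacb, Dgat2, Elovl5 and Gpam, against 6.95% of all genes) and 2 lower (Elovl1 and Me1, against 10.3%); these and Cyp27a1, Lyz2 and Cd68 are named after their values were seen. Of 5 genes of LXR and efflux, 4 were lower with a median of -0.09. For background, the same 5 lists had medians between -0.01 and 0.15, all below the sterol branch's 0.40.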

How the data were processed

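The deposited table gives log2 values for 24169 transcript clusters in 8 arrays, which the authors had centred per cluster: every row has a median of 0 (largest size 5e-07). The log base, and the floor under the uncentred level, were inferred from the step between single-precision numbers (tolerance 6e-08). For background correction, normalisation and summarisation, the method is not given in the sources used here. Builds mm8 and mm9 stand in the submitters' processing notes with no stated use. An exon array is named in the series text, but the identifiers are those of a gene-level array. That annotation gave 1 symbol to 19134 clusters, several to 1230 and none to 3805, and 19067 symbols were updated through RefSeq gene identifiers. Clusters of 1 symbol were averaged into 17501 gene values (899 genes had several clusters).

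Differences, standard errors and p-values come from limma 3.58.1 in R 4.3.3 (lmFit and eBayes, no trend, since centred values hold no mean level), with genotype, background and passage class as terms (4 residual degrees of freedom) or 1 interaction added (3), and Benjamini-Hochberg adjustment over all 17501 genes at 0.05. The small number of arrays limits the precision. On simulated data for genotype, 174 of 200 genes changed by a log2 of 1 were recovered with 9 false calls. That simulation used independent noise and did not cover the interaction terms. It does not give the recovery at the smaller genotype differences of the listed genes, which ran from -0.18 to 0.41. The number ending each title splits the arrays exactly as passage class does. Whatever that number marks cannot be told apart from passage, and the model holds it only as the passage term. The members, lists and naming rule were chosen with earlier results of these data known. Values in all arrays are given for Hmgcs1, Sqle, Insig1, Insig2, Srebf1, Srebf2, Fasn, Scd1, Scd2, Lpin1, Nsdhl and Ebp, and for up to 5 genes per direction of smallest p whose matched pairs share a sign. Up to 4 genes per other list are named, by smallest p. Alternatives were array medians subtracted, quantile normalisation, all interactions, no X and Y genes, robust eBayes, cluster-level tests, no replicate block and each array left out.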

Additional observations from a re-analysis of the deposited data

Results flagged for a closer look

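For 6 of 33 genes late passage was lower than early passage in both wild-type lines and higher in both Smurf2-/- lines, as was so for 4.38% of all genes. The difference itself, the genotype by passage term, was 0.53 for Mvk, 0.43 for Msmo1, 0.65 for Fasn, 1.12 for Scd1, 0.68 for Acss2, the cytosolic acetyl-CoA synthetase, and 1.12 for Lpin1. None of these terms passed in limma, with adjusted p-values from 0.777 (Fasn) to 0.996 (Scd1). Late minus early was 0.16 and 0.21 for Fasn in mixed BL and C57B6 Smurf2-/- cells, against -0.33 and -0.61 in wild-type cells. For Acss2 it was 0.51 and 0.42 in Smurf2-/- cells, against -0.24 and -0.19 in wild-type cells. Of the 6, Msmo1 and Mvk had the smallest differences in mixed BL, at 0.08 and 0.09 in Smurf2-/- cells, against -0.06 and -0.07 in wild-type cells. Each value rests on 1 array a cell, and groups of 2 arrays were too small to look for single arrays out of range.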

How the results depend on the processing

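Of 815 values recomputed with other settings, 746 were scored as the same, 63 as moved and 5 as reversed, and 1 crossed the threshold. The score of a branch median did not follow its sign. The sterol median for genotype at early passage was -0.11, and 0.12 without the early C57B6 wild-type array, yet was scored as the same. Several other branch medians near 0 also changed sign with an array left out. No listed gene passed under any of them except Insig2 for background, 1 call when 24169 clusters were tested (0.52, adjusted p = 0.0337; its adjusted p ranged up to 0.328). Without the replicate block, which is the passage term, 4 genes were called for genotype and 14 for background, the sterol medians stayed at 0.16 and 0.40, and no other call changed. Counts of genes called over the whole array were unstable. For genotype (5) they were 0 with array medians subtracted, quantile normalisation, all interactions or no X and Y genes, 1 with robust eBayes, 3 with clusters, and 0 to 1 with an array left out. For passage (3) they were 0 with array medians subtracted, all interactions, robust eBayes or clusters, and 0 to 2 with an array left out. For background (14) they were 7 with array medians subtracted, 1 with quantile normalisation or all interactions, 8 without X and Y genes, 5 with robust eBayes, 66 with clusters, and 1 to 21 with an array left out. For genotype at early passage (1) they were 0 with quantile normalisation, all interactions or no X and Y genes, and 0 to 0 with an array left out. The fatty acid median for late genotype was 0.47 after quantile normalisation and 0.36 to 0.60 with an array left out. In Smurf2-/- cells the passage medians with an array left out were 0.24 to 0.54 (sterol) and 0.32 to 0.53 (fatty acid). For genotype by background the medians ranged from -0.14 to 0.56 (sterol) and -0.21 to 0.63 (fatty acid), and for passage by background from -0.27 to 0.43 and -0.25 to 0.61. The near-zero Sqle interaction ranged from -0.41 to 0.36 with an array left out. It reversed to 0.15 after quantile normalisation, 0.21 without late C57B6 Smurf2-/- or early mixed BL wild-type, and 0.36 without late C57B6 wild-type or early mixed BL Smurf2-/-. The cause of these changes was not tested. Signal over background cannot be read from centred values.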

Other observations

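Outside the 34 listed genes, single enzymes of fatty acid oxidation differed between backgrounds in both directions. That list had a median of 0.04 with 6 of 9 higher, against 0.00 and 51.7% for all genes. Acadm, the dehydrogenase for medium-chain fatty acids, was lower in mixed BL than in C57B6 cells by -0.80 ± 0.14 (SE), below in all 4 matched pairs (limma adjusted p = 0.14). Hadhb, a subunit of the mitochondrial trifunctional protein, was higher by 0.45 ± 0.08, above in all 4 pairs (adjusted p = 0.142). The list of fatty acid supply, elongation and glycerolipid synthesis had a background median of 0.09 with 9 of 13 higher. Of its genes, Acsl4, which activates polyunsaturated fatty acids, was higher by 0.80 ± 0.13 in 4 of 4 pairs (adjusted p = 0.118). Elovl5, which elongates them, was higher by 0.46 ± 0.09 in 4 of 4 pairs (adjusted p = 0.154). None of these passed.

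For the genotype by passage term, Abca1, the cholesterol efflux pump, stood at 1.71 ± 0.56 (SE; adjusted p = 0.863), above 0 in both backgrounds, as were Scarb1, the receptor for high-density lipoprotein, at 1.45 ± 0.65 (adjusted p = 0.963) and Acadl, the dehydrogenase for long-chain fatty acids, at 0.61 ± 0.20 (adjusted p = 0.846). Npc1, which exports cholesterol from lysosomes, stood at -0.76 ± 0.24 (adjusted p = 0.835), below 0 in both backgrounds. None of these terms passed. Scarb1 stood at 1.25 and -1.33 in late mixed BL Smurf2-/- and wild-type cells, and between -0.18 and 0.42 in the other arrays. The median term was 0.06 for LXR and efflux (5 of 5 above 0) and -0.14 for SREBP processing and sterol trafficking (4 of 10). It was 0.07 for fatty acid oxidation (6 of 9), against 0.02 and 54.1% above 0 for all genes.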
